A study of Mus musculus with 8 samples.

Results

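The genes described here are those of the G1 phase engine: the cyclins Ccnd1, Ccnd2, Ccnd3, Ccne1 and Ccne2, their kinases Cdk2, Cdk4 and Cdk6, and the kinase inhibitors Cdkn1a (p21) and Cdkn1b (p27). They were picked by name, 10 genes in all, and each was read from the probe set (a group of array probes for a single transcript) whose annotation gives it as the only symbol. Of the 10 genes, 9 had such a probe set, out of 19938 genes and 21789 probe sets with 1 symbol on the array. The only probe set annotated with Cdkn1a also carries the symbol of a second transcript, so no value is given for p21. Cdkn1b had 2 probe sets, and the one with the higher mean over the arrays was used.

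RNA came from adipose precursors (APs) of male C57BL/6J mice aged 7 to 8 weeks, without any engineered allele. The 4 groups were APs of visceral, perigonadal fat (viAPs) after 3 days of high-fat diet (HFD, D12492), viAPs on standard diet (SD, a Harlan chow), APs of subcutaneous, inguinal fat (scAPs) after 3 days of HFD, and scAPs on SD. Each group had 2 arrays. Samples of 3 mice were pooled for every array, so the spread between arrays is a spread between pools. Digested fat was depleted of CD45+ and CD31+ cells on beads, SCA-1+ cells were kept, and these were lysed without culture. Each level therefore averages all cells of a pool, and more cells in cycle and more transcript per cell cannot be told apart.

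Cells commit to division in G1. Mitogens raise the D cyclins, which bind CDK4 or CDK6 and phosphorylate the retinoblastoma protein. Its phosphorylation frees E2F factors, which drive the genes of S phase and those of cyclin E, and cyclin E with CDK2 completes the step. The CIP/KIP inhibitors p21 and p27 block CDK2 complexes, and p21 is a transcriptional target of p53. Much of this control, that of p27 above all, acts on protein stability and phosphorylation, which an array does not read.

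Levels are log2 of the deposited intensity, so that a difference of 1 is a 2-fold difference, and they are compared between arrays for the same probe set only. A linear model over the 8 arrays (limma) gave each change with its standard error (SE), with Benjamini-Hochberg adjustment of the p-values over all 21789 probe sets. An adjusted p under 0.05 counted as a call. The array labelled SD viAP replicate 4 stood apart from its group. The subcutaneous transcription factor Tbx15 was at a log2 level of 9.77 on it, against 4.70 on SD viAP replicate 3 and 9.34 to 9.67 on the scAP arrays, and the visceral transcription factor Tcf21 was at 5.32 on it, against 9.61 on SD viAP replicate 3. Over all probe sets with 1 symbol its Pearson correlation with SD scAP replicate 2 (0.988) was above that with its partner, SD viAP replicate 3 (0.980). Results that use SD viAPs are therefore also given without it. Over the 8 arrays the precursor marker Pdgfra had log2 levels of 11.01 to 11.56, and Ptprc, which encodes CD45, was at 4.81 to 5.67. The lists they belong to were less even. Of 7 precursor markers, 4 were lower on both HFD viAP arrays than on both HFD scAP arrays and 1 was higher (median difference -0.89). Over all probe sets these shares were 20% and 20.3%. Of 7 leukocyte markers, 5 were lower on both HFD viAP arrays than on both SD viAP arrays and 0 were higher, against 31.2% and 28.9% of all probe sets. Other marker lists had calls with diet. The 8 endothelial markers, which the CD31 beads should remove, had a log2 mean intensity of 7.42 to 7.47 in HFD scAPs, 6.22 to 6.39 in SD scAPs, 5.70 to 6.05 in HFD viAPs and 6.16 to 6.25 in SD viAPs. In scAPs 5 of the 8 were called higher on HFD, against 1.06% of all probe sets, among them Pecam1 (CD31 itself, log2 change 1.43, adjusted p = 0.0152). Fewer were called without SD viAP replicate 4, though their changes in scAPs stayed the same. That array enters the scAP comparison only through the estimate of the spread, which all arrays share. In viAPs 0 of 8 were called. Of the other marker lists, 1 of 6 adipocyte markers (Plin1) and 2 of 8 mural markers (Kcnj8 and Abcc9) were called lower in HFD viAPs, and 1 mural marker was called higher there (Myh11) and 1 in HFD scAPs (Notch3). Over all probe sets 1.95% were called lower and 8.45% higher in HFD viAPs, and 1.06% higher in HFD scAPs. No adipocyte or mural marker was called in either depot without SD viAP replicate 4, where the change of Abcc9 in viAPs was -1.19, against -2.09 with it, and that of Kcnj8 -0.64, against -1.06. None of the 7 leukocyte, 8 mesothelial, 2 erythroid and 7 precursor markers measured was called in either depot by limma. The part of other cell types in the results below was not tested.

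In viAPs, 3 days of HFD raised Ccnd2, which encodes cyclin D2, by 0.71 on the log2 scale, which is 1.64-fold. All 3 D cyclins, Cdk2 and Cdk4 had higher levels on both HFD viAP arrays than on both SD viAP arrays, with log2 changes of 0.42 to 0.71. Cdk6 and Cdkn1b had changes of -0.11 and -0.05, and both were positive once the arrays were centred on their medians (0.036 and 0.087). Only Ccnd2 passed the test. It is 1 of 9 genes measured, and 8.45% of all 21789 probe sets were called higher in HFD viAPs and 1.95% lower, so that the share of G1 genes called is near that of the whole array. Without adjustment 5 of the 9 had a p under 0.05 and were higher (Ccnd1, Ccnd2, Ccnd3, Cdk2 and Cdk4), against 17.8% of all probe sets. The share was 41.4% over the 7315 whose log2 level exceeded 7 on 3 or more arrays, where all 5 lie. The same 5 were the ones whose HFD and SD arrays did not overlap and were higher, against 28.9% of all probe sets, and 62.2% of those 7315. Cdk6 was lower without overlap, 1 of 9 against 31.2%. Without SD viAP replicate 4, 0 of the 9 were called, against 0.909% of all probe sets higher, and Ccnd1, Ccnd2 and Cdk2 had an unadjusted p under 0.05, 3 of 9 against 13.9%. Brighter probe sets moved up as a body: the median change was -0.05 over all probe sets and 0.30 over those above that level, and it was 0.48 over the 9 G1 genes, 6 of which lie above the level.

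**Figure D1:**
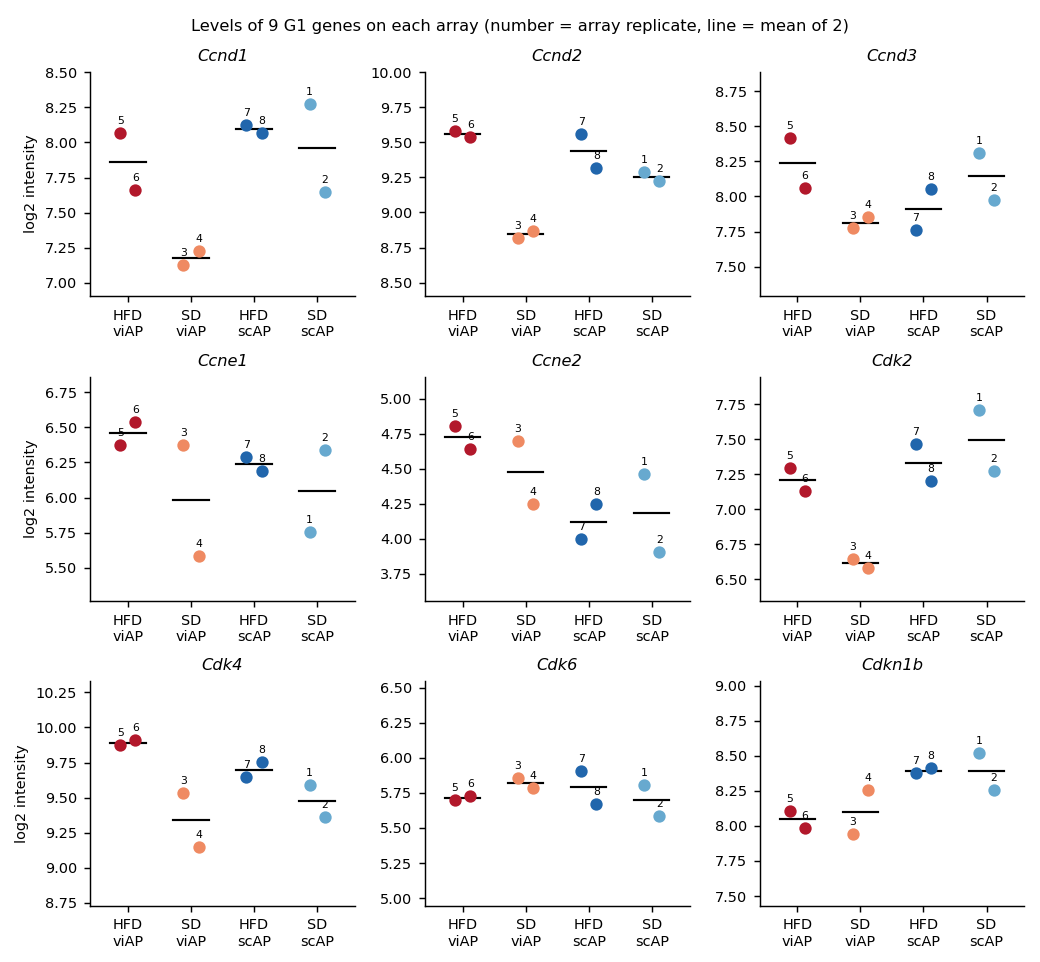
Log2 intensity (vertical axis, 1.6 log2 units in every panel) of 9 G1 genes on each of the 8 arrays, by diet and depot (horizontal axis). Points are arrays with their replicate number and lines are means of 2. Ccnd1, Ccnd2 and Cdk2 stand lowest on the 2 SD viAP arrays, and Cdkn1b differs little between diets.

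Ccnd2 (probe set 10548105) had log2 levels of 9.58 and 9.54 in HFD viAPs, against 8.82 and 8.87 in SD viAPs. In HFD scAPs it had 9.56 and 9.32, against 9.29 and 9.22 in SD scAPs. The 2 SD viAP arrays were the lowest of the 8, and in viAPs the pools of each diet lay closer together than the diets did. The change in viAPs had an SE of 0.13 and an adjusted p of 0.0158 (limma). Without SD viAP replicate 4 it was 0.74 (adjusted p = 0.0719), and the call was also lost without HFD viAP replicate 5 (0.19) or replicate 6 (0.108), though the change stayed at 0.69 or above. In scAPs the change was 0.18 (SE 0.13, adjusted p = 0.535), and -0.050 after a second quantile normalization. Averaged over both depots Ccnd2 rose by 0.45 on HFD (SE 0.09, adjusted p = 0.0149, limma). With single arrays left out this change was 0.39 to 0.51, and the call did not hold for each of them. The call was also lost after a second quantile normalization, and over all alternatives the change ran from 0.16 to 0.57.

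Ccnd1 (probe set 10569646), cyclin D1, the D cyclin most directly raised by growth factor signals, had log2 levels of 8.07 and 7.66 in HFD viAPs, against 7.13 and 7.23 in SD viAPs. Its levels in HFD scAPs were 8.12 and 8.07, against 8.28 and 7.64 in SD scAPs. HFD viAPs thus lay above SD viAPs and within the range of the scAP arrays. The change in viAPs was 0.68 (SE 0.22, adjusted p = 0.0808) and that in scAPs 0.14 (SE 0.22, adjusted p = 0.811), or -0.020 after a second quantile normalization. Replicate 4 of SD viAPs was close to replicate 3 for this gene, and without it the change in viAPs was 0.73.

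Ccnd3 (probe set 10445688), the third D cyclin, had 8.41 and 8.06 in HFD viAPs, against 7.77 and 7.85 in SD viAPs. In HFD scAPs it had 7.76 and 8.06, and in SD scAPs 8.31 and 7.98. The groups did not overlap in viAPs and overlapped in scAPs. The changes were 0.42 in viAPs (SE 0.18, adjusted p = 0.159) and -0.24 in scAPs (SE 0.18, adjusted p = 0.561). Both moved with single arrays, to 0.25 in viAPs without HFD viAP replicate 5 and to -0.069 in scAPs without SD scAP replicate 1, and when each array was left out in turn they ran from 0.25 to 0.60 and from -0.40 to -0.069.

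Of the kinases that D cyclins activate, Cdk4 (probe set 10366814) had log2 levels of 9.87 and 9.91 in HFD viAPs, against 9.53 and 9.15 in SD viAPs. It had 9.65 and 9.75 in HFD scAPs, against 9.59 and 9.36 in SD scAPs. In both depots the HFD arrays lay above the SD arrays, and the 2 HFD viAP arrays were the highest of the 8. The change was 0.55 in viAPs (SE 0.16, adjusted p = 0.0633), 0.36 there without SD viAP replicate 4, and 0.22 in scAPs (SE 0.16, adjusted p = 0.531). Averaged over both depots Cdk4 rose by 0.39 (SE 0.11, adjusted p = 0.0485). That call was lost without SD viAP replicate 4 (0.29, adjusted p = 0.112), and it was lost when any other array was left out except SD scAP replicate 1 and SD viAP replicate 3. Cdk6 (probe set 10519324), the second kinase of the D cyclins, had 5.70 and 5.73 in HFD viAPs, against 5.86 and 5.78 in SD viAPs, and 5.91 and 5.67 in HFD scAPs, against 5.81 and 5.58 in SD scAPs. It did not exceed a log2 level of 7 on any array, and its changes were -0.11 in viAPs (95% interval -0.43 to 0.22) and 0.09 in scAPs (-0.23 to 0.41).

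Cyclin E and its kinase act after the D cyclins. Cdk2 (probe set 10373530) had log2 levels of 7.29 and 7.13 in HFD viAPs, against 6.64 and 6.58 in SD viAPs. In HFD scAPs it had 7.47 and 7.20, against 7.71 and 7.28 in SD scAPs. As with Ccnd1, the SD viAP arrays stood below the other 6. The change was 0.60 in viAPs (SE 0.17, adjusted p = 0.0635, and 0.57 without SD viAP replicate 4) and -0.16 in scAPs (SE 0.17, adjusted p = 0.706). The cyclins themselves were dim. Ccne1 (probe set 10562563) had 6.38 and 6.54 in HFD viAPs, against 6.38 and 5.58 in SD viAPs, and 6.29 and 6.19 in HFD scAPs, against 5.75 and 6.34 in SD scAPs. Its change in viAPs was 0.48 (SE 0.27, adjusted p = 0.268), or 0.08 without SD viAP replicate 4, which had the lowest level of the 8 arrays. Ccne2 (probe set 10503264), the other cyclin E, had 4.81 and 4.64 in HFD viAPs, against 4.70 and 4.25 in SD viAPs, and 4.00 and 4.25 in HFD scAPs, against 4.46 and 3.91 in SD scAPs. Its changes were 0.25 in viAPs (SE 0.22, adjusted p = 0.472, and 0.03 without SD viAP replicate 4) and -0.06 in scAPs. Neither cyclin E exceeded a log2 level of 7 on any array.

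Cdkn1b (probe set 10542310), which encodes the inhibitor p27, had log2 levels of 8.11 and 7.98 in HFD viAPs, against 7.94 and 8.26 in SD viAPs. It had 8.38 and 8.41 in HFD scAPs, against 8.52 and 8.26 in SD scAPs. Diet groups overlapped in both depots. The change was -0.05 in viAPs (95% interval -0.41 to 0.30) and 0.01 in scAPs (-0.35 to 0.36). Without SD viAP replicate 4 the viAP change was 0.10. The second probe set of the gene (10542317) gave -0.04 in viAPs and 0.44 in scAPs (SE 0.21, adjusted p = 0.329), where its levels were 7.20 and 7.29 in HFD scAPs, against 7.00 and 6.60 in SD scAPs. Whether the probe sets differ was not tested.

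**Figure D2:**
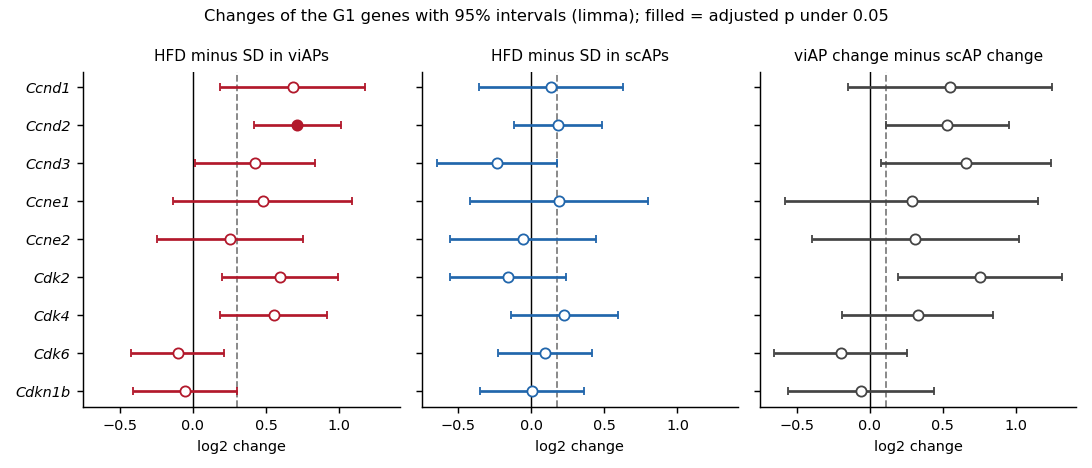
Log2 change (horizontal axis) of each G1 gene on HFD against SD in viAPs, in scAPs, and the first change minus the second, with 95% intervals from limma. The dashed line is the median change of the 7315 probe sets above a log2 level of 7. Only Ccnd2 in viAPs is filled, at 0.71, and the intervals of Cdk6 and Cdkn1b hold 0 in all 3 panels.

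In scAPs 0 of the 9 genes were called by limma, and 0 of 9 had an unadjusted p under 0.05, against 1.06% of all probe sets called higher and 0.11% lower, and 10.8% higher and 5.89% lower without adjustment. The changes ran from -0.24 (Ccnd3) to 0.22 (Cdk4), with a median of 0.09, against 0.18 over the probe sets above a log2 level of 7. The sign of this median turned with a single array, to -0.13 without SD scAP replicate 2, and it was 0.20 without SD scAP replicate 1 and -0.020 after a second quantile normalization. Ccnd2 and Cdk4 had HFD arrays that did not overlap the SD arrays and were higher, 2 of 9 genes against 21.7% of all probe sets. Among those above that level, where both lie, the share was 44.3%.

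Whether viAPs and scAPs differed in their response was tested as the difference between the 2 changes. It was positive for 7 of the 9 genes, against 47.6% of all probe sets and 64.8% of those above the level, where 6 of the 9 lie. The largest values were those of Cdk2 (0.76, 95% interval 0.20 to 1.32), Ccnd3 (0.66, 0.08 to 1.24), Ccnd1 (0.55, -0.15 to 1.25) and Ccnd2 (0.53, 0.11 to 0.95). Their order depends on single arrays, since that of Ccnd1 was 0.23 without SD scAP replicate 1, 0.34 without HFD viAP replicate 5 and 0.86 without SD scAP replicate 2. None passed adjustment in limma (adjusted p = 0.564 for Cdk2, 0.632 for Ccnd3, 0.736 for Ccnd1 and 0.601 for Ccnd2), where 1 probe set of 21789 did so (0.00459%). Without adjustment Ccnd2, Ccnd3 and Cdk2 had a p under 0.05, 3 of 9 genes against 4.41% of all probe sets, and without SD viAP replicate 4 these were Ccnd2 and Cdk2, 2 of 9 against 3.77%. Of the 6 genes above the level, Cdk2, Ccnd3, Ccnd1 and Ccnd2 stood at percentiles 96.7, 94.9, 91.2 and 90.6 of the probe sets above it, and Cdkn1b at percentile 28.2. On the average of both depots 2 of 9 genes were called higher (Ccnd2 and Cdk4), against 12.1% of all probe sets higher and 4.96% lower, and 29.8% higher of those above the level, where both lie. These 2 were also the ones with no overlap in either depot, against 14.9% of all probe sets and 36.4% of those above the level. Without SD viAP replicate 4 only Ccnd2 was called, 1 of 9 against 8.34%.

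**Figure D3:**
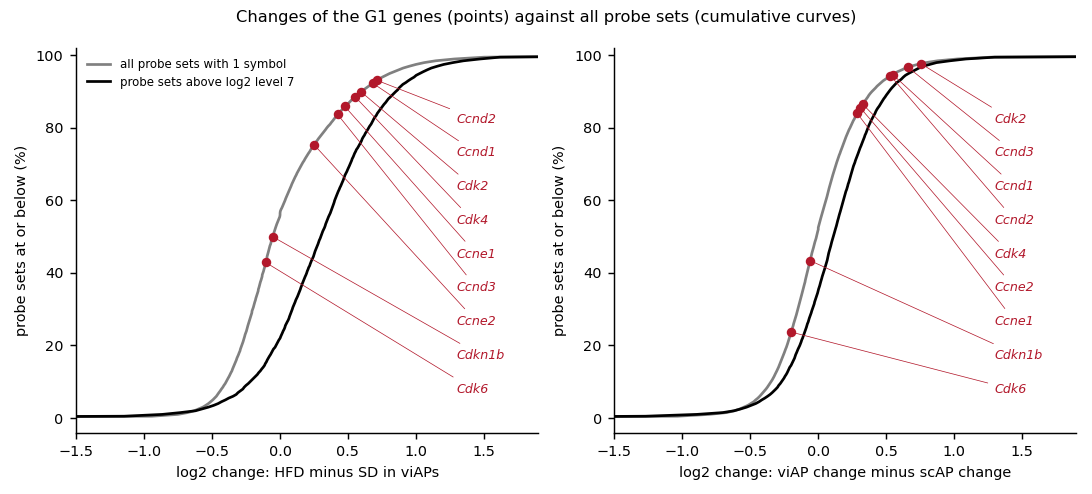
Cumulative curves of the log2 change on HFD in viAPs (left) and of the viAP change minus the scAP change (right). The horizontal axes give the log2 change and the vertical axes the percentage of probe sets at or below it. The grey curve holds all probe sets with 1 symbol, with the G1 genes as points on it, and the black curve those above a log2 level of 7. Ccnd2 stands at percentile 93.1 on the left and Cdk2 at percentile 97.7 on the right, while Cdkn1b is at 50 and 43.4.

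Between depots on SD, Cdk2 had a log2 difference of -0.88 in viAPs against scAPs (SE 0.17), Ccnd1 of -0.78 (SE 0.22) and Ccnd2 of -0.41 (SE 0.13). With Ccnd3 (-0.33) these are the genes whose SD viAP arrays all lay below the SD scAP arrays. They are 4 of 9, against 15.9% of all probe sets and 27.3% of those above the level, where all 4 lie. Limma called 0 of the 9 and 0 of all 21789 probe sets here (0%). At an unadjusted p under 0.05 Ccnd1, Ccnd2 and Cdk2 were lower, 3 of 9 genes against 6.65%, and 13.8% of those above the level. The array labelled SD viAP replicate 4 had scAP levels of depot genes but SD viAP levels of these cyclins and of Cdk2 (7.23 for Ccnd1, 8.87 for Ccnd2, 6.58 for Cdk2). For Cdkn1b it had 8.26, the level of SD scAP replicate 2, against 7.94 on SD viAP replicate 3. Without it 109 probe sets were called higher (0.5%) and 94 lower (0.431%), 0 of the G1 genes among them, and Ccnd1, Ccnd2, Cdk2 and Cdkn1b were lower at an unadjusted p under 0.05, 4 of 9 against 7.01% (adjusted p = 0.176 for Cdk2 and 0.302 for Cdkn1b, with a difference of -0.45).

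On HFD the differences between viAPs and scAPs were -0.23 for Ccnd1, 0.12 for Ccnd2 and -0.12 for Cdk2, with intervals that hold 0 and levels that overlapped or touched. Ccnd3, Ccne1, Ccne2 and Cdk4 were higher on both HFD viAP arrays than on both HFD scAP arrays, 4 of 9 genes against 20.3% of all probe sets. Above the level, where Ccnd3 and Cdk4 lie, the share was 31.8%. Cdkn1b was lower, 1 of 9 against 20%, and 23.2% of those above the level, where it lies. The difference was 0.60 for Ccne2 (SE 0.22, adjusted p = 0.329) and -0.35 for Cdkn1b (SE 0.16, adjusted p = 0.485), with -0.63 for the second probe set of Cdkn1b (SE 0.21, adjusted p = 0.259). Of the 9 genes 0 were called by limma, against 1.07% of all probe sets higher and 0.436% lower, and 1 of 9 at an unadjusted p under 0.05 (Ccne2, against 6% of all probe sets higher). The diet and depot comparisons share arrays, so a low SD viAP level enters both.

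Proximal promoters are shown for Cdk4, Cdk2 and Cdkn1b, which had the most matches to the E-box, the E2F site and the CCAAT box among the G1 genes with a promoter. RefSeq (GRCm38.p6) gave a promoter for 7 of the 10 genes. It gave none for Ccnd1, Ccnd2 and Ccne2, so these were not searched. The 250 bases before the transcription start were searched on both strands for CACGTG (the E-box bound by MYC and its relatives), TTTCCCGC or TTTGGCGC (E2F sites), CCAAT (bound by NF-Y) and GGGCGG (bound by SP1). A match is a description of the sequence, not of binding. Matches to the E-box, E2F and CCAAT motifs are in capitals. Cdk4 lies at chr10:127063285-127063534 on the plus strand, Cdk2 at chr10:128705052-128705301 on the minus strand and Cdkn1b at chr6:134920151-134920400 on the plus strand.
Cdk4: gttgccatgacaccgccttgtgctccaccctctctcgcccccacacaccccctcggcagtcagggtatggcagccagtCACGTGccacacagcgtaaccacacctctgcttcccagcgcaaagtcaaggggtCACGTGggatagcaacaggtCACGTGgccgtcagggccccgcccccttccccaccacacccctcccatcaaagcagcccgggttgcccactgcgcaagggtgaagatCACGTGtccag
Cdk2: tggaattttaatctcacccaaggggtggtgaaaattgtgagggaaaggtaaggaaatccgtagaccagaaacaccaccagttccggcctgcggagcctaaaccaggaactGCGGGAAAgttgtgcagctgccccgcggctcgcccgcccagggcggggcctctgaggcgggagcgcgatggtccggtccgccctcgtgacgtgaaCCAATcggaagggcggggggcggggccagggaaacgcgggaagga
Cdkn1b: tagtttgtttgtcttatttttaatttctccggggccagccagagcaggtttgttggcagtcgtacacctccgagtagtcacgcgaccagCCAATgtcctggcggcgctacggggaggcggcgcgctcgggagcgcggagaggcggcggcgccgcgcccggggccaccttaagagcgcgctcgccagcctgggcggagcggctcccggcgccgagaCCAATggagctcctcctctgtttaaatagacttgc
The Cdk4 window has 4 E-boxes, which start 172, 118, 98 and 11 bases before the transcription start. Of 32851 promoter windows of this length 6.02% have at least 1 E-box and 0.0213% at least 4. The Cdk2 window has 1 match to an E2F site, read on the other strand as GCGGGAAA, 140 bases before the start (at least 1 in 1.3% of windows), and 1 CCAAT box (33.8%). The Cdkn1b window has 2 CCAAT boxes (at least 2 in 10.1%). The Cdk6 window, not shown, has 1 E-box, and its gene had a viAP change of -0.11. Of the 2 Ccnd3 windows 1 has a CCAAT box. GGGCGG occurs 5 times in the Cdk2 window (at least 5 in 1.93% of windows) and once each in those of Cdk4 and Cdkn1b (at least 1 in 32.7%).

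Upstream of the D cyclins, 16 transcription factors and cofactors were listed as possible inputs to cyclin D genes. Whether each raises or lowers those genes here was not tested. Of the 16, 7 were called higher in HFD viAPs and 0 lower: Fosl1 (1.05), Ets2 (1.00), Stat3 (0.79), Myc (0.70), Ctnnb1 (0.64), Ets1 (0.89) and Fosl2 (0.60). The share called higher was 8.45% over all probe sets and 20.6% over those above the level, where 14 of the 16 lie. Myc, the E-box factor that drives cell growth, had log2 levels of 12.37 and 12.33 in HFD viAPs, against 11.75 and 11.56 in SD viAPs (adjusted p = 0.0197). It had 12.23 and 12.02 in HFD scAPs, against 11.61 and 11.52 in SD scAPs. All HFD arrays lay above all SD arrays. Fosl1 (FRA1, a partner of JUN in AP-1) had 9.29 and 9.35 in HFD viAPs, against 8.15 and 8.38 in SD viAPs. The median change of the list was 0.38 in both depots, and 0 of 16 were called in scAPs. In viAPs 12 of the 16 had a positive change, while Fos, Jun and Egr1 had changes of -0.28, -0.16 and -0.11. Fosl1 and Ets2 were the 2 called in viAPs without SD viAP replicate 4.

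Downstream, the pocket proteins and S phase genes were examined. Of 13 RB and E2F family genes, 2 were called higher in HFD viAPs and 0 lower, between the shares of 8.45% over all probe sets and 20.6% over those above the level, where 5 of the 13 lie. Rbl1 (p107), itself an E2F target, rose by 0.99 (SE 0.15, adjusted p = 0.00929), with log2 levels of 6.77 and 6.60 in HFD viAPs, against 5.78 and 5.61 in SD viAPs. Rb1, the retinoblastoma gene, rose by 0.69 (adjusted p = 0.0412). Neither was called without SD viAP replicate 4 (adjusted p = 0.0645 for Rbl1 and 0.158 for Rb1). E2f1, the activator E2F, had a change of 0.27 (adjusted p = 0.21). Of 30 E2F target genes of S phase, 6 were called higher and 0 lower: Rrm1 (1.35), Ccna2 (1.66), Uhrf1 (1.19), Cdk1 (0.77), Pcna (0.63) and Mcm6 (0.98). Over all probe sets 8.45% were called higher, and 20.6% of those above the level, where 3 of the 30 lie. Their median change was 0.30. Ccna2 encodes cyclin A2, which takes over CDK2 from cyclin E in S phase. None of the 30 was called in viAPs without SD viAP replicate 4, where their changes had a median of 0.15 and that of Mcm6 was 0.64.

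Mitotic genes were read as well. Among 8 proliferation markers 6 were called higher in HFD viAPs and 0 lower, against 8.45% of all probe sets higher, with Mki67 (Ki67) at 2.31, Top2a at 2.17 and Plk1 at 1.80, and a median of 0.99. Of 13 other cyclins, 2 were called higher: the mitotic cyclin Ccnb2 (1.85) and Ccnt1 (0.66), a cyclin of transcriptional elongation. The summed level of the proliferation markers, as a log2 mean intensity, was 7.13 to 7.36 in HFD viAPs, 5.73 to 5.90 in SD viAPs, 5.97 to 6.12 in HFD scAPs and 5.75 to 5.88 in SD scAPs. Mki67, Top2a and Plk1, 3 of the 8, were called without SD viAP replicate 4, as was Ccnb2.

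Other regulators act on the G1 kinases themselves. Of the 6 other CDK inhibitors limma called 0 in either depot. At an unadjusted p under 0.05 it gave Cdkn3 in viAPs, higher on HFD, and Cdkn2a (-0.42) and Cdkn2c (-0.44) in scAPs, lower on HFD. At that p 17.8% of all probe sets were higher in viAPs and 5.89% lower in scAPs. Cdkn3, a phosphatase that acts on CDK2, had log2 levels of 6.58 and 6.17 in HFD viAPs, against 5.95 and 5.73 in SD viAPs (change 0.54, adjusted p = 0.072). The INK4 genes Cdkn2a, Cdkn2b, Cdkn2c and Cdkn2d, inhibitors of CDK4 and CDK6, had changes of -0.35, -0.05, 0.28 and 0.08 in viAPs, and Cdkn1c (p57) one of -0.12. Of 7 genes of kinase activation limma called 0 in either depot. At an unadjusted p under 0.05 it gave 2 in viAPs, both higher on HFD, and none in scAPs. The share higher in viAPs was 17.8% over all probe sets and 41.4% over those above the level, where 4 of the 7 lie. The 2 genes were Wee1, the kinase that inhibits CDK1 and CDK2, at 1.04 (adjusted p = 0.0739, limma), and Cdk7, the CDK-activating kinase, at 0.44 (adjusted p = 0.141). Of 12 genes of cyclin and p27 turnover, Cks2 (0.92), a small CDK-binding subunit, and Cul1 (0.66), the scaffold of the SCF ubiquitin ligase, were called higher in viAPs, and Fbxo31 (-0.76), an F-box protein of cyclin D1 turnover, lower. Over all probe sets 8.45% were called higher there and 1.95% lower. Above the level, where 8 of the 12 lie, the shares were 20.6% and 1.11%. Only Cks2 was called without SD viAP replicate 4. Skp2, the F-box protein that targets p27, had a change of 0.09 (adjusted p = 0.699).

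Targets of the factors that induce the inhibitors were read in place of p21, which has no value here. Of 22 p53 target genes other than Cdkn1a, 2 were called higher in HFD viAPs and 0 lower (Plk2, 1.39, and Mdm2, 0.84), a share near the 8.45% of all probe sets called higher, and the median change was 0.08. The change of Plk2 was 0.90 without SD viAP replicate 4. For the 16 FOXO target genes other than Cdkn1b, the shares over all probe sets were 8.45% higher and 1.95% lower. Above the level, where 12 of the 16 lie, they were 20.6% and 1.11%. Of the 16, Trib1 (1.08) was called higher and Trim63 (-0.64) lower, with a median of 0.25. None of these 4 was called without SD viAP replicate 4. In scAPs 0 genes of these pathway lists were called. The median change in viAPs was 0.30 over the probe sets above a level of 7.

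**Figure D4:**
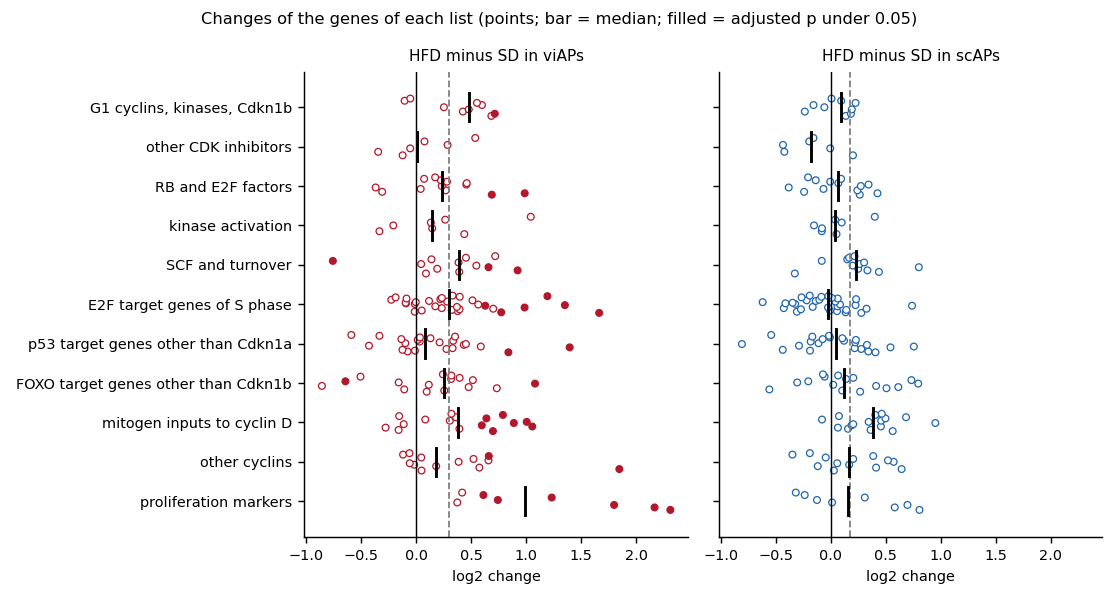
Log2 change on HFD against SD (horizontal axis) of the genes of each list (rows) in viAPs (left) and scAPs (right). Points are genes, filled where the adjusted p is under 0.05, bars are list medians, and the dashed line is the median of probe sets above a log2 level of 7. Filled points are absent in scAPs, and in viAPs the proliferation markers reach 2.31.

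Among themselves the 9 genes followed more than 1 pattern over the 8 arrays. The closest pair was Ccnd1 and Cdk2 (Pearson's r = 0.93), followed by Ccnd1 and Ccnd2 (0.78), while Ccne1 and Cdkn1b had -0.59. Among the 7315 probe sets above the level, the 3 most like each gene were Washc4 (0.99), Pcmt1 (0.99) and Ctps2 (0.98) for Ccnd1, Ifrd1 (0.99), Tut7 (0.98) and H2az1 (0.98) for Ccnd2, and Loxl4 (0.96), Lztfl1 (0.95) and Timm17b (0.92) for Ccnd3. For Cdk2 they were Mettl3 (0.95), Stom (0.95) and Ppp6r3 (0.94), for Cdk4 Tgfbr3 (0.997), Pnpt1 (0.99) and Csnk1d (0.99), and for Cdkn1b Aif1l (0.98), Ssh2 (0.97) and Dkk2 (0.97). A correlation above 0.9 was common for Cdk4 (7.05% of probe sets) and rare for Ccnd3 (0.15%). These values are descriptions over 8 arrays that share 4 groups and 1 normalization.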

How the data were processed

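Gene expression of APs was measured on 8 Affymetrix Mouse Gene 1.0 ST arrays, 2 per combination of diet and depot, each a pool of 3 mice. Groups come from the sample labels, which number the arrays 1 to 8. The number of arrays limits the precision. The deposited intensity of each probe set is an RMA summary after quantile normalization, given in linear units rounded to whole numbers. The paper's methods name the R package oligo, whereas Affymetrix Expression Console 1.1 is the tool in the submitters' processing notes, with RMA. Neither states the antilog or the rounding, which is coarse for dim probe sets (the lowest intensity is 4).

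Of 35556 probe sets, 21789 have 1 symbol, 1621 several and 12146 none. The first kind was analysed, as log2 values with no further scaling, and 21698 were found in RefSeq by Entrez ID with 0 symbols changed. The linear model took the 8 arrays together, with a mean for each group (limma 3.58.1, R 4.3.3, lmFit followed by eBayes, two-sided, 4 residual and 4.58 prior degrees of freedom). The methods' filter (log2 above 7 on at least 3 arrays, deviation in the upper tercile) keeps 3076 probe sets and 2 of the 9 genes, so the whole table was used and filters were alternatives. An exact permutation test of 2 against 2 arrays cannot go below p = 0.333, so none was run. On simulated data for viAPs with 21789 probe sets, the fit called 96.5% of 200 genes with a log2 change of 1, 100% of 200 with a change of 2, and 34 unchanged ones. The simulated noise was independent between arrays and had the spread that the model estimates, with no array that stands apart. Changes below 1 were not simulated. These shares therefore check the code and do not give the power or the error rate on the real arrays.

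The genes and lists were chosen with earlier results of these data known. The rule for names was every G1 gene, of each list the called members with the smallest p in a comparison (at most 4), for each G1 gene above the level the 3 most correlated genes, and Tbx15, Hoxc10, Tcf21 and Wt1 as a check of the labels. Other genes named, such as Ctnnb1, Fos and Wee1, were chosen after their values were seen. Alternatives were log2 of the value plus 16, median centring, a second quantile normalization, filters, all probe sets, no moderation, an intensity trend, only the arrays compared, the next brightest probe set and leaving out each array. Promoters were searched and figures drawn in Python 3.11.15 with matplotlib 3.10.9.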

Additional observations from a re-analysis of the deposited data

How the results depend on the processing

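No paired analysis was possible because the groups share no replicate numbers. Ccnd2 in viAPs was called in the data as analysed, and its change was 0.69 to 0.74 when single arrays were left out, with an adjusted p of 0.0235 to 0.19. Over the arrays left out in turn, 0 to 3 G1 genes were called higher in viAPs and 0 to 3 on the average of both depots, and the probe sets called numbered 0 to 2578 in viAPs, 0 to 33 in scAPs, 0 to 106 for the difference between depots, 597 to 4432 on the average, 1 to 602 between depots on HFD and 0 to 203 between depots on SD. Median centring called 4 G1 genes in viAPs and 799 probe sets in scAPs, moved the viAP median over the whole array to 0.09, against -0.05, and moved the share of calls that were higher to 94.6% in viAPs, against 81.3%, and to 90.8% on the average, against 70.9%. A second quantile normalization called 0 G1 genes in viAPs and 0 on the average, with 1086, 88 and 2169 probe sets called in viAPs, in scAPs and on the average. The filter of the methods called 2 G1 genes in viAPs and 0 on the average, and 637 probe sets in scAPs, 0 for the difference, 2233 on the average and 159 between depots on HFD, with 93.1% of calls higher in viAPs, 92.2% on the average and 61% between depots on HFD (71.1% without the filter). The level filter alone called 4 G1 genes in viAPs, 623 probe sets in scAPs, 0 for the difference and 137 between depots on HFD. With log2 of the value plus 16, 466 probe sets were called in scAPs and 125 between depots on HFD. With all 35556 probe sets, 3 were called in scAPs, 1 between depots on HFD, and 1 G1 gene on the average. Without moderation 0 G1 genes were called in viAPs and 1 on the average, with 107, 28, 20, 960, 15 and 14 probe sets called in viAPs, in scAPs, for the difference, on the average, between depots on HFD and between depots on SD. With only the arrays compared 0 G1 genes and 0 probe sets were called in viAPs, 0 in scAPs and 156 between depots on HFD. The cause was not tested in any of these.

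Every change of sign was in a comparison in which that gene had no call, also for Ccnd2 and Cdk4, which were called in other comparisons. Under median centring the change was 0.036 for Cdk6 and 0.087 for Cdkn1b in viAPs, 0.040 for Ccne2 in scAPs, and 0.11 for Cdk6 and 0.10 for Cdkn1b on the average. After a second quantile normalization it was 0.031 for Cdk6 in viAPs, -0.020 for Ccnd1, -0.050 for Ccnd2, 0.040 for Ccne2 and -0.19 for Cdkn1b in scAPs, and -0.13 for Ccnd3 and 0.12 for Cdk6 on the average. The second probe set of Cdkn1b gave 0.20 on the average. When single arrays were left out, Cdkn1b ran from -0.21 to 0.10 in viAPs, -0.13 to 0.14 in scAPs, -0.22 to 0.10 for the difference and -0.10 to 0.055 on the average. In scAPs Ccnd1 ran from -0.18 to 0.45, Ccne1 from -0.10 to 0.48, Ccne2 from -0.34 to 0.22, Cdk2 from -0.37 to 0.058 and Cdk6 from -0.024 to 0.21. The difference for Ccne1 ran from -0.11 to 0.68, and on the average Ccne2 ran from -0.042 to 0.23 and Cdk6 from -0.065 to 0.053. Between depots on HFD Cdk2 ran from -0.26 to 0.012 and Cdk6 from -0.19 to 0.042, and on SD Ccne1 ran from -0.46 to 0.33 and Cdk4 from -0.33 to 0.055. Only the arrays compared could not be used for the difference and the average, and the filters give no value for the genes they remove.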
